A study of Homo sapiens with 2 samples.

Results

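The semaphorins, plexins and neuropilins form a family of secreted and membrane-bound ligands and their receptors. They were followed here in DLD1, a human colorectal adenocarcinoma cell line, by RNA sequencing. Members were chosen by gene symbol alone, and the set was picked for description with earlier results of these data known, so its ratios are given as a description. The symbols matched 31 of the 52402 in the count files, 20 semaphorins, 9 plexins and 2 neuropilins. Of these 31, 24 reached a mean of at least 1 CPM over both libraries (CPM, counts scaled to a library total of 1000000) and are called measured below. No member's symbol stood on more than 1 row.

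One library came from DLD1 cells with the genotype HERV-R Knockout, a knockout of a human endogenous retrovirus, and the other from control DLD1 cells with the genotype WT. The title of the series names the HERV-R envelope gene and asks about tumorigenic characteristics of the cells. Both groups carry the same protocol text, which describes transfection of Cas9 and guide RNA vectors with a lipid reagent and hygromycin selection of colonies. The sources used here do not say which vectors the control received, whether each group is 1 clone or where the guide cuts. As each group is 1 library, replicate spread could not be measured and nothing was tested, and every difference below is one between 2 libraries. The library labelled knockout held 16406308 counts and the control library 21881122.

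ERV3-1, which encodes the HERV-R envelope protein, had 125 counts (7.62 CPM) in the library labelled knockout, against 127 (5.80 CPM) in the control, a ratio of 1.31 (95% counting interval 1.02 to 1.69). The targeted gene was thus not lower. An edit of a few bases need not change such counts, the presence of an edit was not tested, and every direction below rests on the label. The files give ZNF117, a zinc finger gene at the same locus, and the readthrough of both genes rows of their own. ERV3-1-ZNF117 had 174 counts in the knockout-labelled library and 220 in the control, and ZNF117 had 46 counts in the knockout-labelled library and 0 in the control. Colon epithelial markers were present in both libraries. Of 12 listed, 9 were measured, while KRT20 and CDX1 were at 0 in both. EPCAM had 749.8 CPM in the library labelled knockout and 701 CPM in the control, and CDH1 had 704 CPM in the knockout-labelled library and 854 CPM in the control. Summed over all 12 listed, the level was 5980 CPM in the library labelled knockout and 11716 CPM in the control. KRT8 and KRT18 were the largest parts of this sum. KRT8 had 1875 CPM in the knockout-labelled library and 4138 CPM in the control. KRT18 had 1741 CPM in the knockout-labelled library and 4967 CPM in the control. Of the 9 measured markers, 3 had a log2 ratio above 0 and 6 below. The keratins KRT18, KRT19 and KRT8 were lower by the 2-fold rule used below and the transcription factor gene CDX2 was higher, with 298 CPM in the knockout-labelled library and 99.4 CPM in the control. Of 9 fibroblast, 8 endothelial, 9 blood and immune and 8 neuronal markers, 1 each was measured (PDGFRB, ESAM, CD68 and MAP2). MAP2, of the neuronal list, was lower by the 2-fold rule, with 27 counts in the knockout-labelled library and 149 in the control, and CD68 had 15 counts in the knockout-labelled library and 54 in the control. COL3A1, CDH5, PTPRC and SNAP25 were at 0 in both libraries. The neuronal list summed to 1.71 CPM in the knockout-labelled library and 6.95 CPM in the control, and the immune list to 1.40 CPM in the knockout-labelled library and 2.88 CPM in the control. The fibroblast list summed to 2.86 CPM in the knockout-labelled library and 5.76 CPM in the control, and the endothelial list to 7.62 CPM in the knockout-labelled library and 10.3 CPM in the control. The part of any of these lists in the results below was not tested.

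Semaphorins share an extracellular sema domain. Class 3 members are secreted, classes 4 to 6 span the membrane and class 7 is held by a lipid anchor. Plexins are their receptors and carry a cytoplasmic domain that acts on small GTPases. Neuropilins bind class 3 semaphorins and pair with plexins, and they also bind vascular endothelial growth factor. The family is best known for steering axons, and in epithelia and tumours it takes part in cell migration and in the growth of blood vessels.

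Of the 24 measured members, 7 were at least 2-fold lower in the library labelled knockout and 1 was at least 2-fold higher. The 7 were SEMA3B, SEMA4A, SEMA5A, SEMA6B, SEMA7A, PLXNB3 and PLXND1, and the higher one was SEMA3C. The rule was a log2 ratio of CPM, with 1 CPM added to each library, of at least 1 or at most -1. The lower members were 29.2% of those measured, where 5.69% of all 12644 measured symbols were lower by this rule. SEMA4A, SEMA6B and SEMA7A had less than 1 CPM in the library labelled knockout and reached the minimum mean through the control. The higher member was 4.17%, where 6.78% of all measured symbols were higher. At 3-fold, 3 members were lower and 1 higher, 12.5% and 4.17%, where 1.81% and 0.933% of all symbols passed. The median log2 ratio was -0.33 over the measured members and 0.12 over all measured symbols, and 15 of 24 members lay below 0, against 41.9% of all symbols. In RNA from a whole culture, fewer cells that express a gene and less RNA per cell cannot be told apart.

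Another scaling changed the counts over all symbols but not which members passed. Higher symbols made up 54.4% of all calls by library totals. Scaled by the median of gene ratios they made up 36.5%, with 7.47% of symbols lower and 4.30% higher, and the median of all measured symbols was -0.03 in place of 0.12. With that choice, with edgeR's trimmed mean (TMM) and with the upper quartile, the same 7 members were lower and the same 1 was higher. Just inside the rule lay SEMA5A and SEMA7A, each with a log2 ratio of -1.20, and just outside it NRP1 at -0.74. On the other side SEMA3C stood at 1.73 and the next member, SEMA3A, at 0.66.

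**Figure D1:**
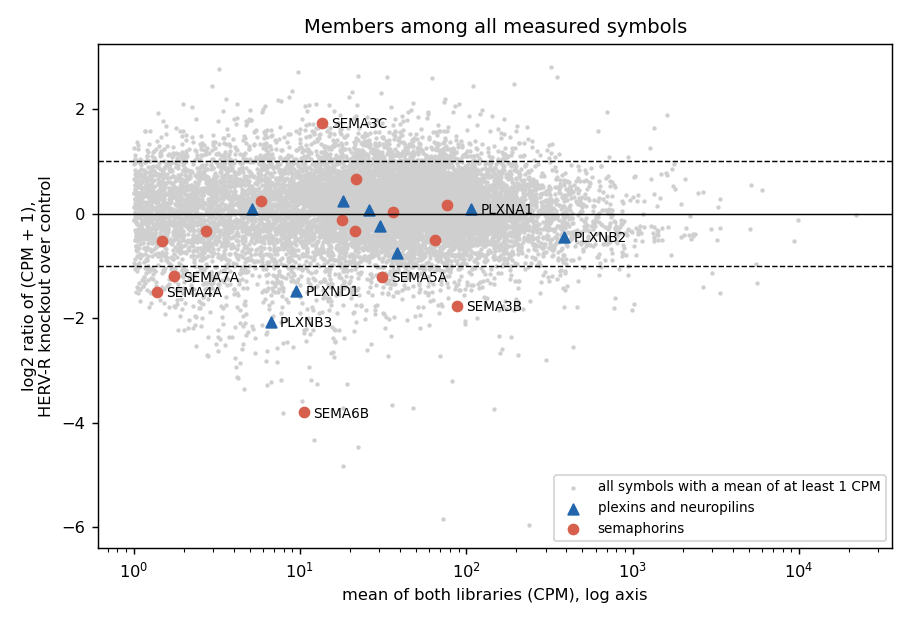
Log2 ratio of CPM plus 1, library labelled knockout over control, against the mean CPM of both libraries on a log axis. Grey points are the 12644 measured symbols, red circles semaphorins and blue triangles plexins and neuropilins, and dashed lines mark the 2-fold rule. SEMA6B, at -3.80, lies farthest from 0 among the 24 members, and SEMA3C, at 1.73, is the only member above the upper line.

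Within the secreted class 3, SEMA3B was lower and SEMA3C higher, and the other measured members did not pass the rule. SEMA3B, a secreted ligand that lies in a region of chromosome 3p often lost in lung cancer, had 650 counts (39.6 CPM) in the library labelled knockout and 2994 counts (137 CPM) in the control. It was 3.45-fold lower (3.17 to 3.77, an exact 95% Clopper-Pearson interval that, like those below, covers counting error only). SEMA3B held 22.6% of class 3 counts (21.1 to 24.2) in the library labelled knockout and 57.8% (56.5 to 59.2) in the control, where it was the member with the most counts.

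SEMA3C, a ligand of both neuropilins and of PLXND1, had 350 counts (21.3 CPM) in the library labelled knockout against 125 (5.71 CPM) in the control. This was 3.73-fold higher (3.04 to 4.62), and its share of class 3 counts was 12.2% in the knockout-labelled library and 2.41% in the control. SEMA3A, the founding collapse-inducing ligand of NRP1, had 440 counts (26.8 CPM) in the knockout-labelled library and 364 (16.6 CPM) in the control, 1.61-fold higher (1.40 to 1.86) and below the 2-fold rule.

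SEMA3F, a ligand of NRP2, had 81.2 CPM in the library labelled knockout and 72.2 CPM in the control, a ratio of 1.13 (1.05 to 1.21). SEMA3G, also a ligand of NRP2, had 105 counts in the knockout-labelled library and 116 in the control, a ratio of 1.21 whose interval (0.918 to 1.59) holds 1. SEMA3D and SEMA3E had 0 counts in both libraries. At 0 counts a level of up to 3 counts remains possible, equal to 0.183 CPM in the library labelled knockout and to 0.137 CPM in the control. Summed over class 3, the level was 175 CPM in the knockout-labelled library and 237 CPM in the control, 1.35-fold lower (1.29 to 1.41). SEMA3B set the direction of this sum. Without it, a choice made after its values were seen, the other class 3 members summed to 136 CPM in the knockout-labelled library and 99.8 CPM in the control, a ratio of 1.36 (1.28 to 1.44).

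SEMA3B and SEMA3F lie in the same region of chromosome 3 (GRCh38, SEMA3B at chr3:50260226-50277546 and SEMA3F at chr3:50155058-50189075, both on the plus strand). SEMA3B passed the rule and SEMA3F did not. GNAI2, a measured gene between them and nearest to SEMA3B, had 164 CPM in the library labelled knockout and 147 CPM in the control. IFRD2, on the other side of SEMA3B, had 141 CPM in the knockout-labelled library and 91.1 CPM in the control. SEMA3C and SEMA3A lie on the minus strand of chromosome 7 (chr7:80742538-80922389 and chr7:83955777-84492725).

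**Figure D2:**
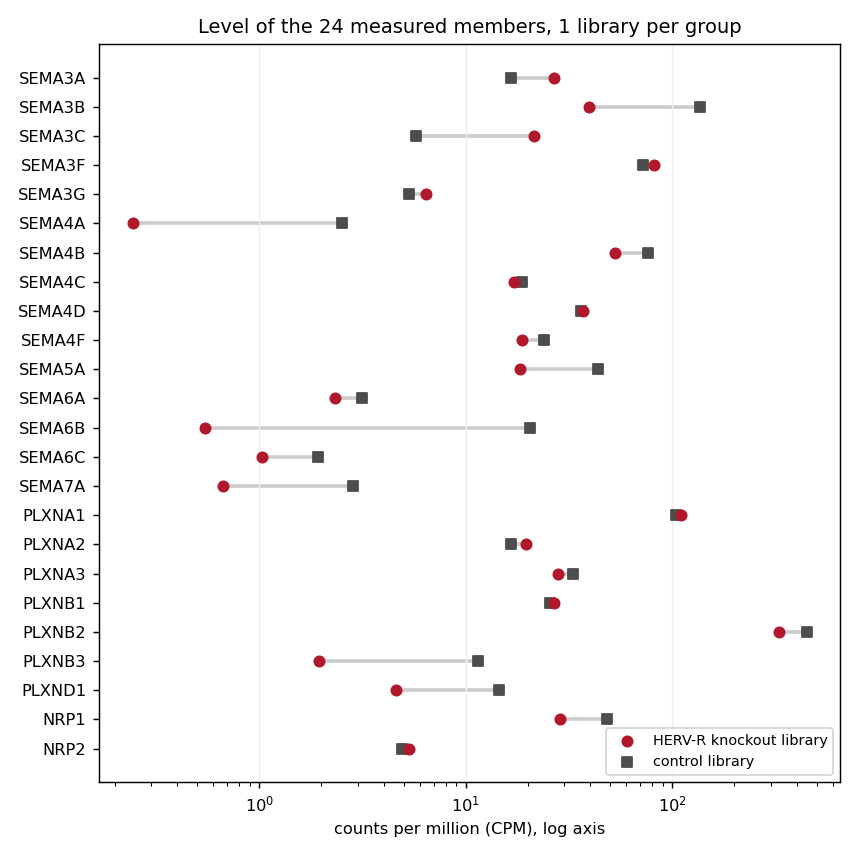
CPM of the 24 measured members on a log axis, with the library labelled knockout as red circles and the control as grey squares, 1 library each. The widest gaps are those of SEMA6B (0.549 CPM in the knockout-labelled library, 20.6 CPM in the control) and SEMA4A (0.244 CPM in the knockout-labelled library, 2.51 CPM in the control), and SEMA3C is the widest gap in the other direction.

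Among the transmembrane semaphorins, SEMA6B stood farthest from the control. It encodes a class 6 semaphorin that binds A-type plexins in mouse, and lies on the minus strand of chromosome 19 (chr19:4542593-4559684). SEMA6B had 9 counts (0.549 CPM) in the library labelled knockout and 450 counts (20.6 CPM) in the control. Its CPM was 37.5-fold lower (19.6 to 82.5), and by the log2 ratio SEMA6B was the 7th lowest of the 12644 measured symbols. The measured genes beside it, LRG1 and TNFAIP8L1, had 7.25 and 23.8 CPM in the library labelled knockout, against 9.60 and 32.1 CPM in the control, and neither passed the rule.

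The other class 6 members were low in both libraries. SEMA6A had 38 counts in the knockout-labelled library and 69 in the control, 1.36-fold lower with an interval that holds 1 (0.9035 to 2.08). SEMA6C had 17 counts in the knockout-labelled library and 42 in the control, 1.85-fold lower (1.03 to 3.47). SEMA6D had 0 counts in both. SEMA6B held 14.1% of class 6 counts in the library labelled knockout (6.64 to 25.02) and 80.2% in the control (76.7 to 83.4). The class sum was 3.90 CPM in the knockout-labelled library and 25.6 CPM in the control, 6.57-fold lower (5.07 to 8.65).

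SEMA5A, a class 5 semaphorin with thrombospondin repeats and a ligand of PLXNB3, had 302 counts (18.4 CPM) in the library labelled knockout and 956 counts (43.7 CPM) in the control. It was 2.37-fold lower (2.08 to 2.71). Its relative SEMA5B had 0 counts in the knockout-labelled library and 2 in the control, so a difference was not detectable at this depth. SEMA7A, the lipid-anchored member, had 11 counts (0.671 CPM) in the knockout-labelled library and 62 (2.83 CPM) in the control, 4.23-fold lower (2.21 to 8.90).

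Of class 4, SEMA4A passed the rule and the others did not. SEMA4A, which acts on immune cells and blood vessels, had 4 counts (0.244 CPM) in the library labelled knockout against 55 (2.51 CPM) in the control. It was 10.3-fold lower, with a wide interval (3.81 to 39.2). With a pseudocount of 5 CPM in place of 1 CPM the log2 ratios of SEMA4A and SEMA7A were -0.52 and -0.47, which do not pass. SEMA4B had 53.0 CPM in the knockout-labelled library and 75.96 CPM in the control, 1.43-fold lower (1.32 to 1.56).

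SEMA4D, the ligand of PLXNB1 that was first known as a T cell antigen, had 37.0 CPM in the library labelled knockout and 36.0 CPM in the control, a ratio of 1.03 (0.923 to 1.14). SEMA4C, a ligand of PLXNB2, had 17.1 CPM in the knockout-labelled library and 18.7 CPM in the control, a ratio of 0.913 (0.782 to 1.07). SEMA4F had 18.8 CPM in the knockout-labelled library and 24.0 CPM in the control, 1.27-fold lower (1.11 to 1.47). SEMA4G had 8 counts in the knockout-labelled library and 11 in the control, and was not measured. MRPL43, which overlaps SEMA4G on the other strand, had 645 counts in the knockout-labelled library and 1215 in the control, and the sources used here do not say whether counting used strand.

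**Figure D3:**
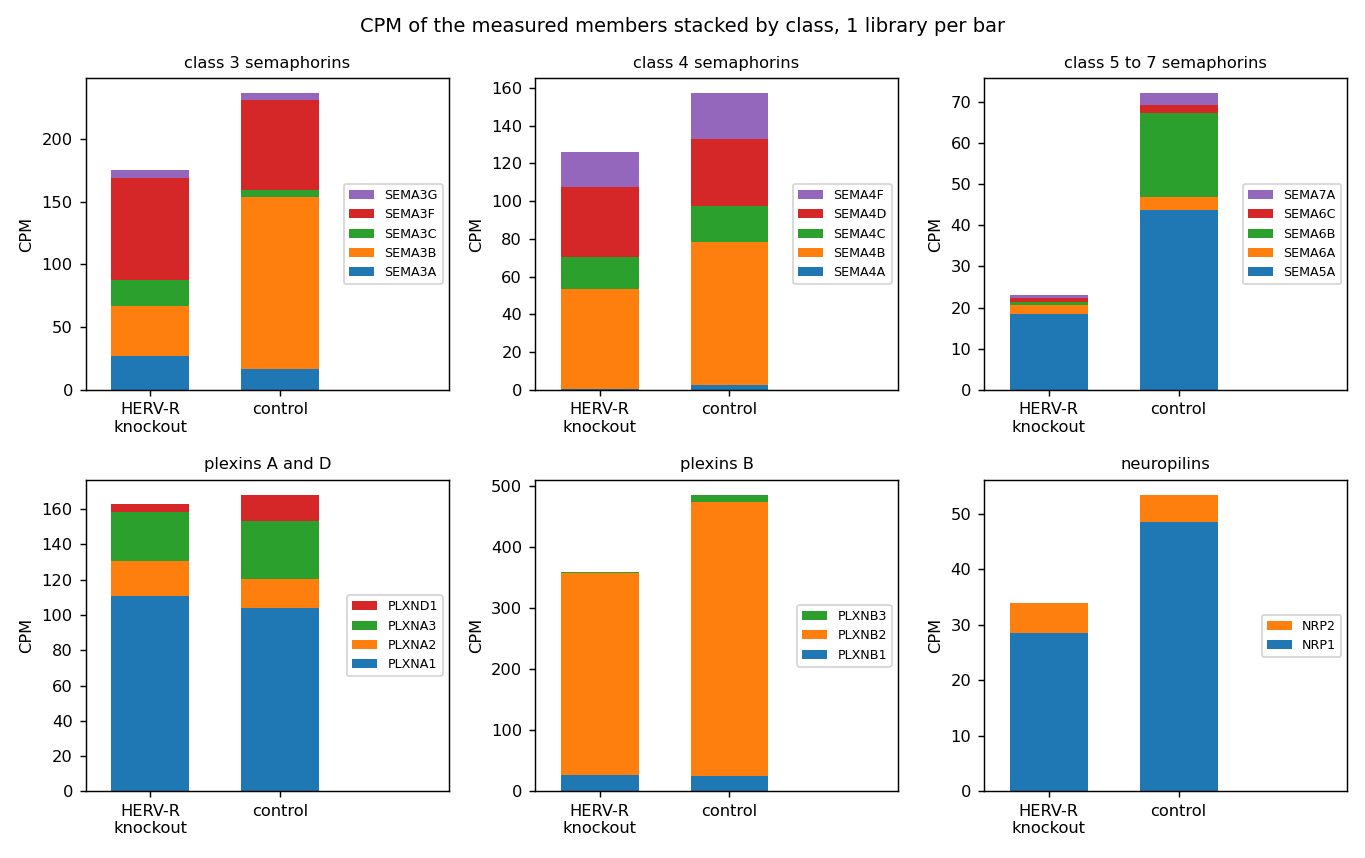
CPM of the measured members stacked within 6 groups, 1 bar per library, with the library labelled knockout on the left of each panel and its own vertical axis from 0. SEMA3B (orange, class 3) takes 39.6 CPM on the left and 137 CPM on the right, and SEMA6B (green, class 5 to 7 panel) is 0.549 CPM on the left and 20.6 CPM on the right. Heights of different genes are not scaled by length.

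Of the plexins, PLXNB3 and PLXND1 passed the rule, both lower. PLXNB3, the receptor of SEMA5A, lies on the X chromosome (chrX:153764249-153779341, plus strand). It had 32 counts (1.95 CPM) in the library labelled knockout and 250 counts (11.4 CPM) in the control, 5.86-fold lower (4.04 to 8.75). Of its 50-base transcript windows, 18.3% also occur in transcripts of SRPK3, which overlaps it on the same strand and had 0 counts in the knockout-labelled library and 4 in the control. Reads in the shared part cannot be given to 1 of these genes. PLXND1, a receptor of SEMA3E with a role in blood vessels, had 75 counts (4.57 CPM) in the knockout-labelled library and 317 (14.5 CPM) in the control, 3.17-fold lower (2.46 to 4.13).

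The other B-type plexins were closer to the control. PLXNB2, which in the control had the highest level per kilobase of any member, had 5421 counts (330.4 CPM) in the library labelled knockout against 9804 (448 CPM) in the control, 1.36-fold lower (1.31 to 1.40). It held 92.0% of B-type plexin counts in the knockout-labelled library and 92.4% in the control. PLXNB1 had 26.8 CPM in the knockout-labelled library and 25.6 CPM in the control, a ratio of 1.05 (0.922 to 1.19). PLXNB3 held 0.543% of B-type counts (0.372 to 0.766) in the library labelled knockout and 2.36% (2.08 to 2.66) in the control.

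The A-type plexins, which pair with neuropilins for class 3 ligands and bind class 6 ligands directly, had 158 CPM in sum in the library labelled knockout, against 154 CPM in the control. The ratio of 1.03 (0.980 to 1.09) became 0.949 with TMM, 0.936 with the upper quartile and 0.925 with the median of gene ratios. PLXNA1 had 111 CPM in the knockout-labelled library and 104 CPM in the control, a ratio of 1.07 (1.001 to 1.13). PLXNA2 had 19.7 CPM in the knockout-labelled library and 16.5 CPM in the control, a ratio of 1.19 (1.02 to 1.39). PLXNA3 had 27.9 CPM in the knockout-labelled library and 33.0 CPM in the control, 1.19-fold lower (1.05 to 1.34). PLXNA4, a receptor of class 6 ligands, had 5 counts in the knockout-labelled library and 1 in the control, a ratio of 6.67 that its interval (0.746 to 315) leaves without a direction. PLXNC1, the plexin of SEMA7A, had 3 counts in each library.

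Neither neuropilin passed the rule. NRP1, on chromosome 10 (chr10:33177493-33334667, minus strand), had 468 counts (28.5 CPM) in the library labelled knockout and 1060 counts (48.4 CPM) in the control, 1.70-fold lower (1.52 to 1.90). NRP2 had 87 counts (5.30 CPM) in the knockout-labelled library and 108 (4.94 CPM) in the control, a ratio of 1.07 (0.801 to 1.44). NRP1 held 84.3% of neuropilin counts (81.0 to 87.3) in the library labelled knockout and 90.8% (88.9 to 92.4) in the control. The signs of SEMA4D, PLXNA1, PLXNB1 and NRP2, all within 0.10 of 0 on the log2 scale, turned negative with TMM, the upper quartile and the median of gene ratios.

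**Figure D4:**
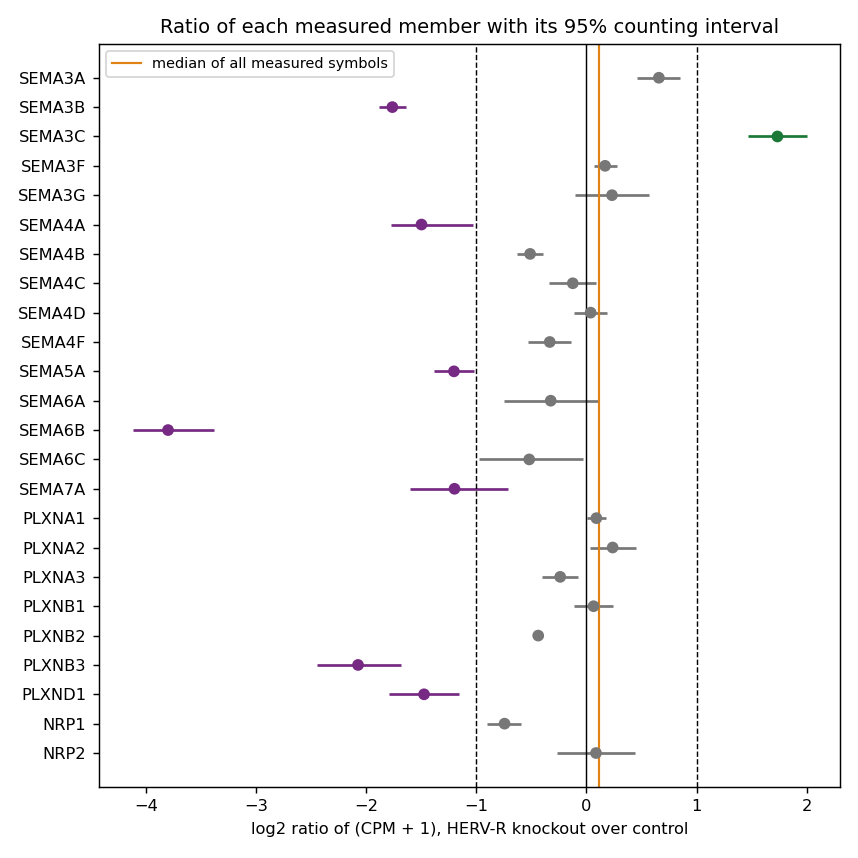
Log2 ratio of CPM plus 1 for the 24 measured members, library labelled knockout over control, with 95% counting intervals as bars. Purple marks the 7 members at or below -1, green the 1 at or above 1, grey the rest, dashed lines the 2-fold rule and the orange line the median of all measured symbols (0.12). The interval of SEMA7A spans the lower dashed line, and those of the other 6 lower members do not.

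Scaled by exon length, the ligand at the top of the order differed between the libraries. In the library labelled knockout SEMA3F had the highest level of the semaphorins, 16.8 CPM per kilobase, followed by SEMA4B at 7.56 and SEMA3B at 6.87. In the control SEMA3B led at 23.7 CPM per kilobase, followed by SEMA3F at 14.95, SEMA4B at 10.8 and SEMA6B at 4.66. SEMA6B, the 4th in the control, was the 14th of 20 in the library labelled knockout with 0.124 CPM per kilobase. SEMA3C was the 4th of 20 there with 3.40 CPM per kilobase and the 11th in the control with 0.911. Among the receptors the order began with PLXNB2 and PLXNA1 in both libraries. PLXNB2 had 45.5 CPM per kilobase in the knockout-labelled library and 61.7 in the control, and PLXNA1 had 10.1 in the knockout-labelled library and 9.49 in the control. The lengths are unions of GENCODE exons, and transcripts that are not used in DLD1 cells make them too long.

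Ligands and their known receptors did not move as pairs throughout. SEMA5A and PLXNB3 were both lower, by 2.37-fold and 5.86-fold. SEMA3C was 3.73-fold higher while its receptors PLXND1 and NRP1 were 3.17-fold and 1.70-fold lower, and NRP2 was close to the control. SEMA4D and PLXNB1 both had ratios near 1 (1.03 and 1.05). SEMA3E, a ligand of PLXND1, had 0 counts in both libraries although PLXND1 was measured in both. SEMA7A was lower, and so was ITGB1, an integrin subunit through which it also signals. ITGB1 had 168 CPM in the library labelled knockout and 326 CPM in the control, 1.94-fold lower (1.86 to 2.03). It did not pass the 2-fold rule by library totals but did with each of the other scalings. ITGA1, another listed integrin subunit, had 0 counts in the knockout-labelled library and 1 in the control.

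Of the lower members, SEMA5A was the only one with a measured gene that starts within 1000 bases of it on the other strand. SNHG18, a noncoding host gene of a small nucleolar RNA, had 125 counts (7.62 CPM) in the library labelled knockout and 436 counts (19.9 CPM) in the control, 2.62-fold lower (2.14 to 3.22). Of the 16 measured genes that flank the 8 members past the rule, SNHG18 was the only one to pass it, and 15 lay between. Of all measured symbols, 5.69% were lower and 6.78% higher by this rule. The nearest to the rule among these 15 was LMNA, beside SEMA4A, with 526 CPM in the library labelled knockout and 970.5 CPM in the control, a log2 ratio of -0.88. IDH3G, beside PLXNB3, had 51.9 CPM in the library labelled knockout and 60.4 CPM in the control. Of the others, GNAI1, PCLO, SLC25A44, MIR4458HG, PML, UBL7, IFT122 and TMCC1 had log2 ratios between -0.47 (PCLO, beside SEMA3C) and 0.50 (SLC25A44, beside SEMA4A). A noncoding gene that starts 187 bases from SEMA3B on the other strand, SEMA3B-AS1, had 0 counts in the knockout-labelled library and 7 in the control. The 250 bases before the SEMA5A start (RefSeq, GRCh38.p14, chr5:9546076-9546325, minus strand) are shown because both starts lie in or beside them, and capitals mark the 126 bases that SNHG18 (chr5:9546200-9550298) also covers. G and C make up 82.0% of this window, against a median of 58.0% over 35116 such windows of all genes, and it holds 33 CG pairs against a median of 11.
SEMA5A: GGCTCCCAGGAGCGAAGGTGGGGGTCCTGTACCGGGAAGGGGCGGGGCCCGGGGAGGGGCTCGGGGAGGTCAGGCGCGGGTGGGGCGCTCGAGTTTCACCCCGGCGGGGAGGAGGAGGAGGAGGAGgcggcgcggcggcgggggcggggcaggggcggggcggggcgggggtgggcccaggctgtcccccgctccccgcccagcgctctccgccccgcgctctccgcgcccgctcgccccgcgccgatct

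Promoter windows were found for 27 of 31 members, 48 windows in all, among them 6 of the 7 lower members and the higher one. SEMA6B, SEMA3A, SEMA6A and NRP1 had no entry. The 6 lower members with an entry had 14 windows, and the 13 members between the rules with an entry had 18. Motifs were searched on both strands in the 250 bases before each start. GGAATG, the core that TEAD factors bind, was in 6 of 48 windows (12.5%), against 11.9% of all 35116 windows. These windows belong to 3 of the lower members, SEMA3B, SEMA4A and PLXNB3, and to 2 members between the rules, SEMA3F and PLXNB1. They are shown as 30 bases on the gene's strand with GGAATG or its reverse complement in capitals, in the order lower members first. The positions are chrX:153764015-153764044 for PLXNB3, chr3:50267475-50267504 and chr3:50269044-50269073 for SEMA3B, chr1:156149694-156149723 for SEMA4A, chr3:50155249-50155278 for SEMA3F and chr3:48429565-48429594 for PLXNB1.
PLXNB3: gtgccaggttatGGAATGcccacccaatag
SEMA3B, first site: ctcccttgtgccCATTCCactcccgcctgg
SEMA3B, next site: gggttcggaagtGGAATGcgaccccccagc
SEMA4A: gttgtaaagaGGAATGggccccagctgacc
SEMA3F: gccccgcgctggGGAATGcgccctcggcgc
PLXNB1: gcggggctGGAATGcggggtcccgggcggt

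The AP-1 motif TGANTCA was in 1 of the 48 windows (2.08%), that of PLXNC1, against 6.57% of all windows, so none of the windows of the lower members holds these letters. The SP1 motif GGGCGG was in 62.5% of member windows against 42.6% of all. It is made of G and C alone, and member windows had a median of 64.8% G and C, against 58.0% over all windows. The part of this composition in the motif shares was not tested. CCGGAAG, bound by ETS factors, was in 6.25% against 8.52%. ATCAAAG, bound by TCF factors, was in 6.25% against 2.26%, and ACGTG, the hypoxia response core, in 18.8% against 18.5%. GGAATG and CCGGAAG share the letters GGAA, and no other pair of these motifs was compared for overlap. These matches are letters in a window and do not show binding, and which start DLD1 cells use is not given by the counts.

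Beside the gene lists that follow stand the shares over all measured symbols by the 2-fold rule, 5.69% lower and 6.78% higher. The median log2 ratio of all measured symbols was 0.12. Of the listed co-receptors and other semaphorin receptors, 6 of 17 were measured, of which 1 was lower and 0 higher, with a median log2 ratio of -0.49. The lower one was PTK7, the vertebrate relative of a plexin partner in flies, with 30.7 CPM in the library labelled knockout and 105 CPM in the control, 3.44-fold lower (3.12 to 3.79). The most abundant of the others were ITGB1, given above, and ERBB2, a receptor tyrosine kinase that associates with B-type plexins, with 172 CPM in the knockout-labelled library and 214 CPM in the control. MET, another such kinase, had 148 CPM in the knockout-labelled library and 96.6 CPM in the control, a ratio of 1.53 (1.44 to 1.62), and is named as the 1 member of the list above 0, after its values were seen. KDR, the vascular endothelial growth factor receptor that pairs with NRP1, was at 0 in both libraries, as were L1CAM, CHL1, FLT4, TREM2 and TYROBP.

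Among growth factors that bind neuropilins, 5 of the 10 found in the count files were measured, of which 2 were lower and 0 higher (median -0.82). TGFB1 had 59.6 CPM in the library labelled knockout and 202 CPM in the control, 3.40-fold lower (3.17 to 3.64). PDGFB had 15.1 CPM in the knockout-labelled library and 38.7 CPM in the control, 2.57-fold lower (2.23 to 2.97). VEGFA, the main neuropilin-binding growth factor of blood vessels, had 232 CPM in the knockout-labelled library and 229 CPM in the control, a ratio of 1.01 (0.969 to 1.06). VEGFB, its relative, had 18.2 CPM in the knockout-labelled library and 25.6 CPM in the control. VEGFC, VEGFD and HGF were at 0 in both libraries.

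Of 44 cytoplasmic effectors of plexins, 37 were measured, of which 1 was lower and 0 higher. The median was -0.069, with 17 above 0 and 20 below, and it was between -0.23 and -0.19 with the other scalings. At 1.5-fold, 6 of the 37 were higher and 5 lower, where 20.3% and 13.2% of all measured symbols passed. The lower one was RRAS, a small GTPase on which the plexin cytoplasmic domain acts, with 110 counts (6.71 CPM) in the library labelled knockout against 780 (35.6 CPM) in the control, 5.32-fold lower (4.35 to 6.55). The most abundant others were the actin-severing protein gene CFL1, with 869.5 CPM in the knockout-labelled library and 602 CPM in the control, and RHOA, with 483 CPM in the knockout-labelled library and 533 CPM in the control.

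Of the 7 proteases that process semaphorins, all 7 were measured and 0 passed the rule in either direction (median 0.11). FURIN, which cleaves class 3 semaphorins, had 220.0 CPM in the library labelled knockout and 204 CPM in the control, and ADAM10 had 217 CPM in the knockout-labelled library and 333.5 CPM in the control. The sign of this median turned with TMM (-0.012), the upper quartile and the median of gene ratios. Netrin and slit genes, the other large families of guidance cues and receptors, had 7 of 23 members measured, of which 4 were lower and 0 higher (median -1.04). UNC5B, a netrin receptor, had 31 counts (1.89 CPM) in the knockout-labelled library and 458 (20.9 CPM) in the control, 11.1-fold lower (7.70 to 16.5). ROBO3, of the roundabout receptor family, had 16 counts (0.975 CPM) in the knockout-labelled library and 75 (3.43 CPM) in the control. It was 3.51-fold lower (2.03 to 6.46) and reached the minimum mean of 1 CPM through the control. The netrins NTN1 and NTN4 were 2.69-fold and 2.08-fold lower. Of the others, RGMB, a neogenin ligand, had a log2 ratio of 0.16 and NEO1, a netrin receptor, had 29.1 CPM in the knockout-labelled library and 46.2 CPM in the control. With a pseudocount of 5 CPM, UNC5B alone passed.

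**Figure D5:**
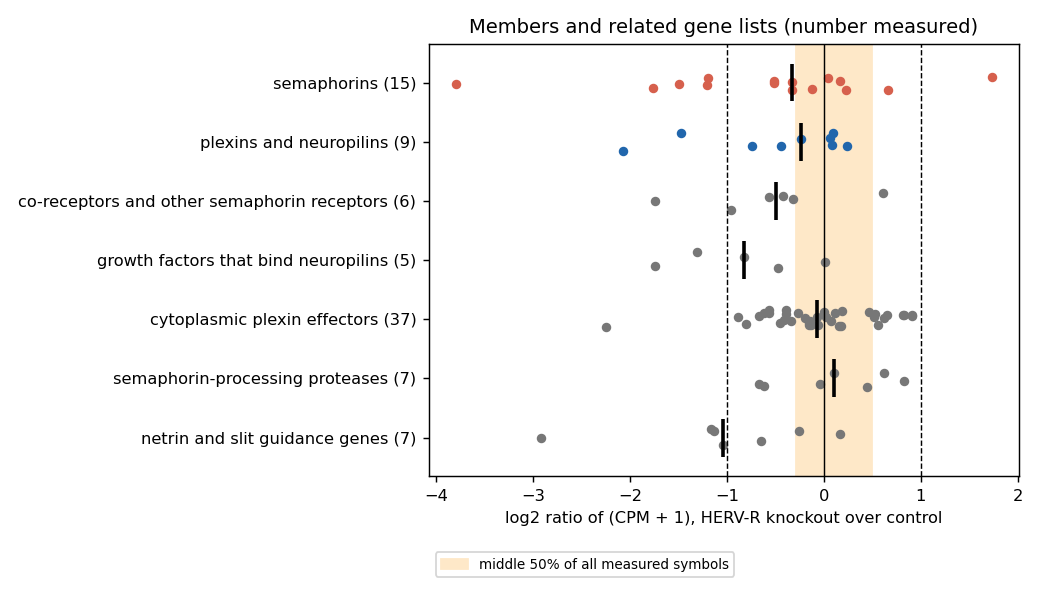
Log2 ratio of CPM plus 1, library labelled knockout over control, for the measured semaphorins, the measured receptors and 5 related gene lists, 1 point per gene, with a black bar at each list's median. The shaded band holds the middle 50% of all measured symbols, and dashed lines mark the 2-fold rule. Points scatter vertically only for visibility, and RRAS and UNC5B are the leftmost points of their lists.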

How the data were processed

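RNA was sequenced from 1 HERV-R knockout and 1 control DLD1 culture. The authors deposited raw counts per gene symbol, with no normalization. The submitters' processing notes name TopHat and the build GRCh38. The sources used here name no version, counting program, annotation, strand setting or filter. The kit is a directional one, per the labels' protocols. Rows of 1 symbol were summed (58173 rows, 52402 symbols) and scaled by column total to CPM, computed here. Members and gene lists, motifs included, were chosen with earlier results of these data known. Log2 ratios add 1 CPM to each library; folds are ratios of CPM without it, with exact 95% Clopper-Pearson intervals conditional on the summed count. Intervals cover counting error only, and reads without molecular identifiers are not independent molecules. The text names every member, of each list the genes past the 2-fold rule and the 2 most abundant others, and the nearest measured gene on each side of members past the rule, of which 1 is not reported here. The procedure was tested on simulated data that held counting error only, with no spread between cultures. Lengths, overlaps and shared 50-base windows come from GENCODE 29, and gene positions and promoters from RefSeq (GRCh38.p14). Scaling factors came from edgeR 4.0.16 and DESeq2 1.42.0, used for no test; tables and intervals from Python 3.11.15 with SciPy 1.17.1.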

Additional observations from a re-analysis of the deposited data

How the results depend on the processing

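The results were recomputed with pseudocounts of 0.1 and 5 CPM, no minimum level or a minimum mean of 5 CPM, 1.5-fold and 3-fold rules, TMM, upper quartile or median-of-ratios scaling, and symbols on a single row only. No paired analysis was possible because each group has 1 library. The same 7 lower members and SEMA3C passed with a pseudocount of 0.1, no minimum, each scaling and single-row symbols. With a pseudocount of 5, or a minimum mean of 5 CPM, SEMA4A and SEMA7A no longer counted, which left 5. With the minimum of 5 CPM these were 5 of 20 measured members, where 4.67% of all symbols were lower. With the pseudocount of 5 they were 5 of 24, where 2.93% of all symbols were lower. Of these 5, SEMA6B, PLXNB3 and PLXND1 had less than 5 CPM in the library labelled knockout. They reached the minimum mean of 5 CPM through the control. With the 3-fold rule 3 were lower. With the 1.5-fold rule 2 were higher (SEMA3A with SEMA3C) and 8 lower (NRP1 joined), 8.33% and 33.3% of measured members, where 20.3% and 13.2% of all symbols passed. The summed semaphorins, 0.697 of the control with library totals, were 0.640 with TMM, 0.631 with the upper quartile and 0.624 with the median of gene ratios, and the summed receptors, 0.787, were 0.724, 0.714 and 0.705. The sums were also taken without the member that had the most counts in the control, a choice made after seeing the data. The semaphorins were then 0.866 of the control (SEMA3B left out) and the receptors 0.873 (PLXNB2 left out). The class 3 sum, 0.741 with SEMA3B, was 1.36 without it. In the library labelled knockout, SEMA3F and SEMA4B had more counts than SEMA3B. The median log2 ratio of all measured symbols, 0.12 with library totals, was 0.0044, -0.015 and -0.030 in that order, and that of the members, -0.33, was -0.43, -0.45 and -0.46.

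The co-receptor median was -0.85 with a pseudocount of 0.1, -0.26 with 5, -0.076 with no minimum and -0.64 with a minimum of 5 CPM. With each of the other scalings, and with the 1.5-fold rule, 2 co-receptors were lower (ITGB1 joined PTK7), and with the 1.5-fold rule 1 was higher. The growth factor median was -0.47 with no minimum, and 1 was lower with the 3-fold rule. For the plexin effectors, the median was -0.19 with TMM, -0.21 with the upper quartile and -0.23 with the median of gene ratios, 2 were lower with either of these last scalings, and 6 were higher and 5 lower with the 1.5-fold rule. For the proteases, the median was -0.032 with the upper quartile and -0.048 with the median of gene ratios, and 2 were higher and 2 lower with the 1.5-fold rule. For netrin and slit genes, the median was -0.59 with a pseudocount of 5 and 0.011 with no minimum, where genes near 0 counts enter, 1 was lower with a pseudocount of 5 or the 3-fold rule, and 2 with a minimum of 5 CPM. The cause of the other shifts was not tested. Of the values of single members, single classes and ERV3-1, 190 stayed within their counting intervals and 38 moved beyond them. A further 1, the class 3 sum without SEMA3B, reversed, and no called member changed sign. The sums of all semaphorins and of all receptors are not in this tally. Both moved beyond their intervals with TMM, the upper quartile and the median of gene ratios. SEMA4A, SEMA6B and SEMA7A rest on 4, 9 and 11 counts in the library labelled knockout, which widens their intervals.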
